A study of Homo sapiens with 12 samples.

Results

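The 8 genes MYC, CCND1, CCNE1, CDK2, ODC1, MDM2, PIM1 and NBN were taken from the count table by their symbols, as proliferation genes reported to be export or translation targets of eIF4E. They are 8 of 58684 genes in the table, and all 8 had enough counts to be tested. Their RNA was measured in the human osteosarcoma line U2OS, in cells with a stable eIF4E-Flag construct (eIF4E cells) or with the vector alone (vector cells). From each kind of cell, RNA from a cap immunoprecipitation (Cap IP) and total RNA (input) were sequenced. The groups were eIF4E Cap IP, vector Cap IP, eIF4E input and vector input, with 3 libraries in each of the 4 groups and 12 libraries in all. All groups keep the EIF4E gene of U2OS itself. Not given in the sources used here is whether each stable line is a pool or a single clone. The labels do not call the replicates separate cultures, and the p-values therefore cover the spread between these libraries, which may be technical.

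eIF4E holds on to the methylated guanosine cap of an mRNA, brings it to the ribosome and, in the nucleus, helps to export a subset of mRNAs. The 8 genes act where growth signals meet the cell cycle. MYC is a transcription factor that drives growth and division. CCND1 (cyclin D1) and CCNE1 (cyclin E1) carry cells from G1 into S phase, CCNE1 as the partner of the kinase CDK2. ODC1 makes polyamines, PIM1 is a survival and growth kinase, MDM2 degrades p53, and NBN (nibrin) belongs to the complex that senses DNA double-strand breaks. Raised protein output from such mRNAs without a change of total mRNA is a known feature of eIF4E action.

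The cap sits on the first transcribed base, so the start sites are the part of these genes that the Cap IP concerns. RefSeq start sites on GRCh38.p14 were matched for 4 of the 8 genes, CCNE1, ODC1, MDM2 and PIM1, and windows of 15 bases before and 15 from the start are shown for them. Capitals mark the bases from the first transcribed one onwards, on the strand of the gene.
CCNE1, chr19:29811976-29812005, plus strand: ctctgagccgggcgcAGGAGCAGCCGGCGC
ODC1, outer start, chr2:10448313-10448342, minus strand: gtgccgtggggctttGTCAGTCCCTCCTGT
ODC1, inner start, chr2:10447998-10448027, minus strand: gcctcgccggcctgcGGAGACACGTGGTCG
MDM2, outer start, chr12:68808157-68808186, plus strand: cgctcccctcgggcgGTAGGGGGCGCGCAC
MDM2, an inner start, chr12:68809009-68809038, plus strand: ttcccagctgtgttcAGTGGCGATTGGAGG
PIM1, chr6:37170137-37170166, plus strand: gcgctcctcccctttACTCCTGGCTGCGGG
CCNE1 and PIM1 start with A and both ODC1 starts with G, the bases that open 44.4% and 33.6% of 35116 RefSeq starts. In all 8 starts were matched to the 4 genes, and not all those of MDM2 are shown. The MDM2 starts open with G, A or, at an inner start not shown, T, which opens 7.2% of all starts. The motif CACGTG, the E-box that MYC binds, was searched on both strands from 250 bases before to 50 after each start. It was found at the inner ODC1 start, within the bases shown in capitals, and in 7.3% of all such windows. ODC1 is a known target of MYC. These matches describe the sequence and say nothing about binding in these cells.

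The libraries held 1206321 to 1813486 counts, of which the 8 genes took 0.0171% to 0.0508%. A single library held between 4 counts (PIM1) and 324 counts (CCND1) of a member, so the values below carry a wide counting error. EIF4E had 25.1 to 29.8 CPM in eIF4E Cap IP, 12.6 to 19.2 in vector Cap IP, 11.9 to 15.4 in eIF4E input and 4.81 to 9.70 in vector input (CPM, counts scaled by library size with TMM factors). It was higher without overlap in eIF4E cells in both fractions, and neither difference passed (edgeR adjusted p = 0.492 in Cap IP and 0.231 in input). Of the markers of the osteoblast lineage, VIM, COL1A1 and SPARC had 414 to 1489, 84.0 to 1067 and 175 to 543 CPM, while COL1A2, BGLAP, SPP1, ALPL and RUNX2 held 2, 17, 27, 59 and 177 counts over all libraries. Of the epithelial markers KRT18 had 264 to 864 CPM, and EPCAM and CDH1 held 49 and 187 counts. Of the blood markers PTPRC, CD3E, HBB and CORO1A held 2, 8, 0 and 81 counts. The antisense gene VIM-AS1 averaged 17369 counts a library, and VIM itself 1289. MT-ND6, the mitochondrial mRNA encoded on the other strand from MT-CO1, averaged 6805 counts, and MT-CO1 averaged 1304. Not given in the sources used here is whether reads were counted by strand. If reads of a stranded kit were counted on the opposite strand, a gene's counts would not come from its own mRNA, and this limit applies to every level below.

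Among the 8 genes, CCNE1, ODC1 and PIM1 had no exons opposite to another gene in GENCODE 44. CCND1, on chromosome 11 (chr11:69641156-69654474, GRCh38), shares 497 exonic bases with LTO1 on the other strand, listed as ORAOV1, which averaged 743 counts in a library while CCND1 averaged 182. ORAOV1 did not pass in any of the 5 comparisons described below. NBN, on chromosome 8, shares 827 exonic bases with OSGIN2, which averaged 35.2 counts in a library while NBN averaged 22.5. MYC, also on chromosome 8, shares 194 bases with CASC11, which averaged 0.083 counts while MYC averaged 77.5. The rows opposite to CDK2 and MDM2 on chromosome 12, PMEL and the carboxypeptidase M gene, averaged 4.50 counts each, while CDK2 averaged 28.9 and MDM2 33.3.

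Per length of exon, CCND1 had the highest level of the 8 in every group and NBN the lowest. CCND1 stood at 24.3 ± 6.04 CPM per kb in eIF4E Cap IP, 19.0 ± 3.09 in vector Cap IP, 28.4 ± 4.68 in eIF4E input and 22.9 ± 2.31 in vector input (SD, n = 3 each). Its lowest library lay above the highest of any other member in all 4 groups. CCNE1 followed with means of 12.02, 10.85, 13.72 and 10.28 CPM per kb in the same order of groups, and its libraries overlapped those of the next gene each time. ODC1 and MYC came next, overlapping each other in every group, at 9.91 and 8.91 CPM per kb in eIF4E Cap IP and 9.36 and 5.57 in vector input. CDK2, PIM1 and MDM2 had group means between 1.99 and 6.37 CPM per kb, and in vector cells PIM1 overlapped MYC in both fractions. NBN had 0.793 ± 0.416 CPM per kb in eIF4E Cap IP and 1.03 ± 0.687 in vector input, where its libraries overlapped those of MDM2. Its exons span 19417 bases when all its annotated transcripts are merged, which lowers its level per length.

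**Figure D1:**
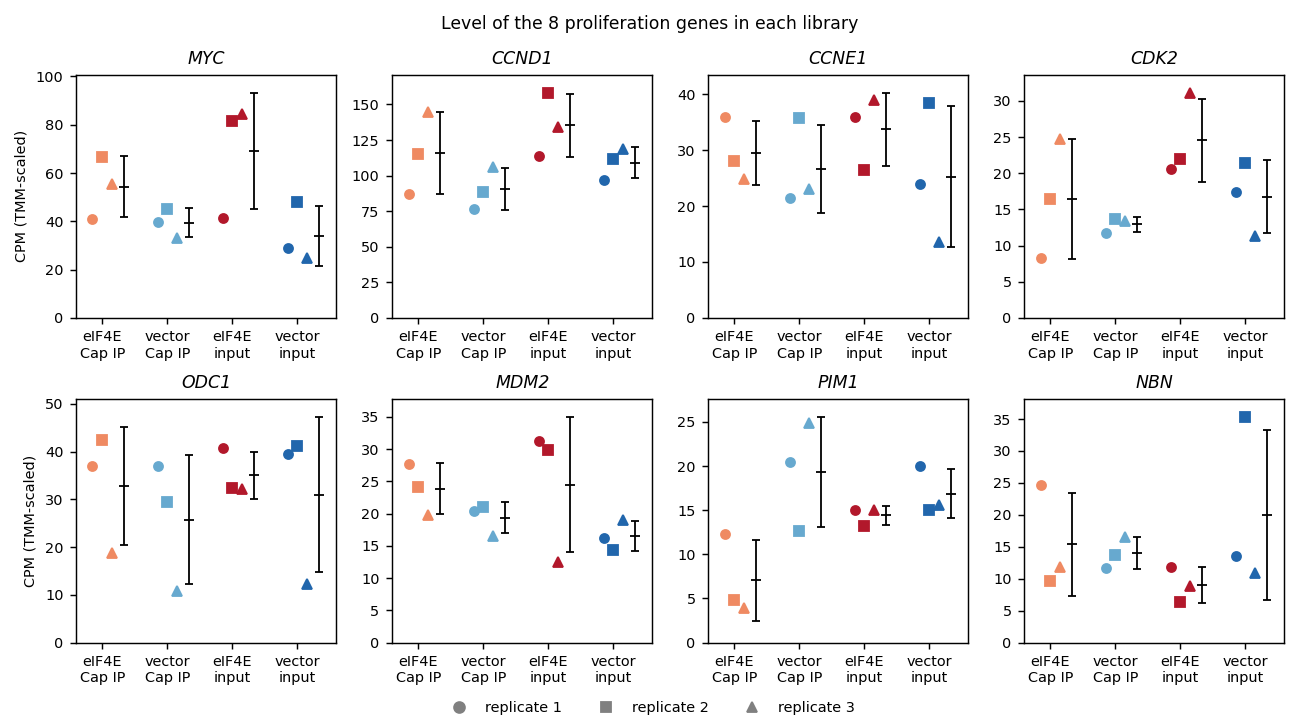
Level of each of the 8 genes in CPM (counts scaled by library size with TMM factors, linear axis from 0) in the 3 libraries of each group, with the mean and SD in black. The eIF4E and vector libraries of a fraction overlap for every gene except PIM1 in Cap IP, where the eIF4E libraries, at 3.97 to 12.3 CPM, lie below the vector libraries, at 12.6 to 24.9 CPM.

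The first comparison asked whether total RNA of the 8 genes differed between eIF4E and vector cells. None passed in input: 0 of 8 had an adjusted p under 0.05 by edgeR, where 0.53% of 12460 tested genes did (edgeR quasi-likelihood test, Benjamini-Hochberg adjusted over all genes tested). Without adjustment, p was under 0.05 for MYC and NBN, 2 of 8, against 13.5% of all genes. DESeq2 also called 0 and had 2 at an unadjusted p under 0.05. With the title tag that eIF4E and vector libraries share as a block, MYC passed (edgeR adjusted p = 0.0357), where 3.71% of all genes did. The log2 change was positive for 6 of 8 and its median was 0.37, beside 46.6% positive and a median of -0.05 over all genes tested. Without vector input replicate 3, 5 of 8 were positive and the median was 0.22. With mitochondrial mRNAs as library sizes, which moved the median of all genes by 0.29, 7 of 8 were positive. In bulk RNA, fewer cells of a kind and less RNA per cell cannot be told apart. The 3 eIF4E libraries overlapped the 3 vector libraries for each of the 8, where 18.7% of all genes showed no overlap.

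MYC had 41.5, 81.6 and 84.6 CPM in eIF4E input, against 29.1, 48.1 and 24.9 CPM in vector input. eIF4E replicates 2 and 3 lay above all vector libraries, and eIF4E replicate 1 lay below vector replicate 2. The means were 69.3 ± 24.1 CPM in eIF4E input and 34.0 ± 12.4 CPM in vector input (SD, n = 3 each). The log2 change was 1.02 ± 0.33 (SE), with a 95% interval of 0.34 to 1.71 that is not adjusted for the number of genes, and it did not pass (edgeR adjusted p = 0.169). It lay above 97.5% of the log2 changes of all genes tested. Leaving out single libraries moved it between 0.83 and 1.37. The edgeR adjusted p then lay between 0.0584 without eIF4E input replicate 1 and 0.530 without vector input replicate 3. With the title tag as a block MYC passed (edgeR adjusted p = 0.0357). ODC1, a target of MYC, had 40.7, 32.3 and 32.2 CPM in eIF4E input, against 39.4, 41.2 and 12.2 CPM in vector input. Vector replicate 3 was low, and the other 5 libraries lay within 32.2 to 41.2 CPM. The log2 change of ODC1 was 0.20 ± 0.43 (95% interval -0.69 to 1.09, edgeR adjusted p = 0.873) and turned to -0.20 without vector input replicate 3.

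CCND1 had 114, 158 and 134 CPM in eIF4E input, against 97.0, 112 and 118 CPM in vector input. The groups overlapped by 1 vector library, replicate 3, which lay above eIF4E replicate 1. The log2 change of CCND1 was 0.31 ± 0.26 (95% interval -0.24 to 0.86, edgeR adjusted p = 0.628). CCNE1 had 35.97, 26.4 and 38.9 CPM in eIF4E input, against 23.9, 38.5 and 13.5 CPM in vector input, so that vector replicate 2 stood among the eIF4E libraries. CDK2, the kinase that CCNE1 activates, had 20.6, 22.0 and 31.2 CPM in eIF4E input, against 17.5, 21.4 and 11.4 CPM in vector input. For these last genes the log2 changes were 0.42 ± 0.35 (CCNE1, edgeR adjusted p = 0.621) and 0.56 ± 0.36 (CDK2, edgeR adjusted p = 0.516). Without vector input replicate 3 they were 0.11 and 0.33, and without vector input replicate 2 they were 0.88 and 0.79. Without eIF4E input replicate 3 CDK2 stood at 0.36. Vector input replicate 3 was the lowest of the 6 input libraries for MYC, CCNE1, CDK2 and ODC1, and the highest of the vector input libraries for CCND1 and MDM2.

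MDM2 had 31.2, 29.8 and 12.5 CPM in eIF4E input, against 16.2, 14.4 and 19.0 CPM in vector input. eIF4E replicate 3 was the lowest of all 6 and the other two eIF4E libraries were the highest. MDM2 had a log2 change of 0.57 ± 0.34 (95% interval -0.15 to 1.29, edgeR adjusted p = 0.481), which was 0.36 without eIF4E input replicate 1 and 0.89 without eIF4E input replicate 3. NBN had 11.9, 6.35 and 8.83 CPM in eIF4E input, against 13.6, 35.3 and 11.0 CPM in vector input. The high value of NBN came from vector replicate 2, with 66 counts. The log2 change of NBN was -1.12 ± 0.45 (95% interval -2.06 to -0.19, edgeR adjusted p = 0.273), and it was -0.41 without that library. PIM1 had 15.02, 13.2 and 15.06 CPM in eIF4E input, against 20.04, 14.97 and 15.6 CPM in vector input, a log2 change of -0.22 ± 0.37 (95% interval -0.99 to 0.55, edgeR adjusted p = 0.833).

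The second comparison asked whether the 8 genes differed between eIF4E and vector cells in the RNA bound in the Cap IP. None passed: 0 of 8 by edgeR, where 0.225% of 12460 genes did, with 1 of 8 (PIM1) at an unadjusted p under 0.05 against 9.2% of all genes. DESeq2 also called 0 of 8. With the title tag that eIF4E and vector libraries share as a block, 1.24% of all genes passed and still 0 of 8 members. The log2 change was positive for 7 of 8, beside 48.8% of all genes, and the median was 0.33 beside -0.01 over all genes tested. With mitochondrial mRNAs as library sizes, which moved the median of all genes by -0.62, all 8 were negative.

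PIM1 had 12.3, 4.83 and 3.97 CPM in eIF4E Cap IP, against 20.4, 12.6 and 24.9 CPM in vector Cap IP. All 3 eIF4E libraries lay below the lowest vector library, which made 1 of 8 genes without overlap. Of all genes 13.6% showed no overlap, and 7.39% were lower without overlap. These values rest on 12, 5 and 4 counts in eIF4E Cap IP and on 21, 12 and 39 counts in vector Cap IP. The log2 change of PIM1 was -1.48 ± 0.44 (95% interval -2.40 to -0.56), at percentile 2.67 of all genes tested, and it did not pass (edgeR adjusted p = 0.249). Without single libraries it lay between -2.11 and -1.19, with edgeR adjusted p between 0.0988 without eIF4E Cap IP replicate 1 and 0.734 without eIF4E Cap IP replicate 2.

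MYC had 41.0, 66.6 and 55.5 CPM in eIF4E Cap IP, against 39.9, 45.2 and 33.2 CPM in vector Cap IP. The groups overlapped by eIF4E replicate 1, and the log2 change was 0.47 ± 0.34 (95% interval -0.24 to 1.19, edgeR adjusted p = 0.739). CCND1 had 87.2, 115 and 145 CPM in eIF4E Cap IP, against 76.8, 88.3 and 106 CPM in vector Cap IP, with a log2 change of 0.35 ± 0.27 (95% interval -0.21 to 0.92, edgeR adjusted p = 0.759). For both genes the interval reached from below 0 to about 1 on the log2 scale. CCNE1 had 35.9, 28.0 and 24.8 CPM in eIF4E Cap IP, against 21.4, 35.7 and 23.0 CPM in vector Cap IP. CDK2 had 8.21, 16.4 and 24.8 CPM in eIF4E Cap IP, against 11.7, 13.7 and 13.4 CPM in vector Cap IP. The eIF4E libraries of CDK2 spread around the tight vector libraries. ODC1 had 36.9, 42.5 and 18.8 CPM in eIF4E Cap IP, against 36.9, 29.4 and 10.9 CPM in vector Cap IP, with replicate 3 low in both kinds of cells. MDM2 had 27.7, 24.1 and 19.8 CPM in eIF4E Cap IP, against 20.4, 21.0 and 16.6 CPM in vector Cap IP. NBN had 24.6, 9.66 and 11.9 CPM in eIF4E Cap IP, against 11.7, 13.7 and 16.6 CPM in vector Cap IP. The log2 changes of these last 5 genes lay between 0.12 (NBN) and 0.38 (ODC1), with edgeR adjusted p between 0.849 and 0.972.

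**Figure D2:**
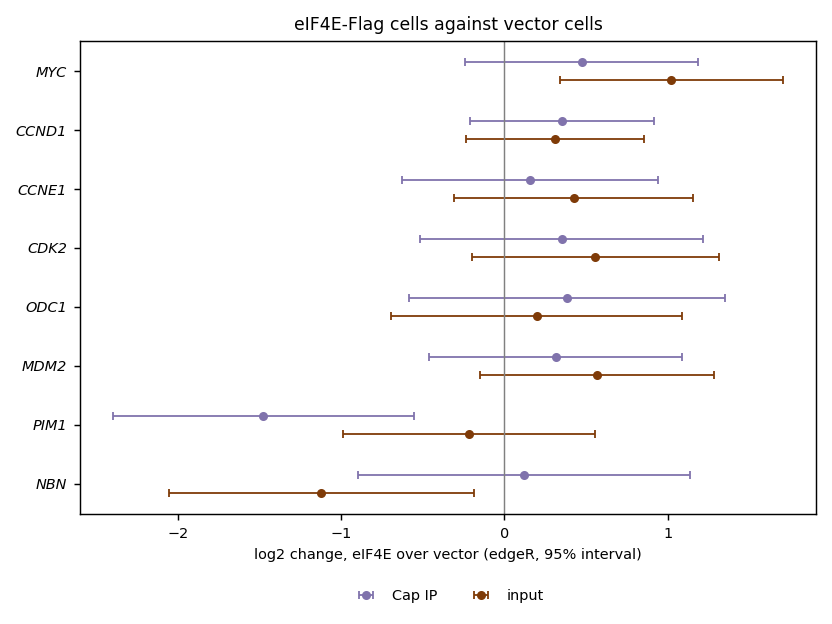
Log2 change of eIF4E over vector cells for each gene in Cap IP (purple) and input (brown), from edgeR, with 95% intervals not adjusted for the number of genes. Most intervals cross 0, and those of MYC and NBN in input and of PIM1 in Cap IP do not. After adjustment over all 12460 genes tested none of the 8 passed in this fit. In Cap IP, 7 of 8 values are positive with TMM scaling, and with mitochondrial mRNAs as library sizes all 8 are negative.

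The next comparisons asked how the Cap IP took up these RNAs relative to input in each kind of cell. In eIF4E cells 0 of 8 passed by edgeR, where 45.1% of 12460 genes did, and in vector cells 0 of 8, where 39.5% did. At an unadjusted p under 0.05 there was 1 of 8 in eIF4E cells (PIM1) and 0 of 8 in vector cells, against 52.4% and 48.1% of all genes, and DESeq2 called 0 in both. Groups did not overlap for 1 of 8 (PIM1) and 0 of 8, where 54.8% and 49.9% of all genes had no overlap. Their log2 changes stood between percentiles 25.3 and 72.8 of all tested genes in eIF4E cells and between 37.1 and 59.3 in vector cells. Their medians were -0.21 and -0.10, beside -0.13 and -0.04 over all genes, and 1 and 4 of the 8 were positive, beside 46.2% and 48.4% of all genes. These counts depend on the library sizes. With the title stem as a block PIM1 passed in eIF4E cells, 1 of 8, where 53.7% of all genes did. With total counts, which moved the median of all genes by -0.85 in eIF4E cells and -0.74 in vector cells, 6 and 3 of the 8 passed as lower in Cap IP. In that setting 55.9% and 46.2% of all genes passed in either direction, and 15.8% and 12.8% of those calls were higher.

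In eIF4E cells PIM1 had 12.3, 4.83 and 3.97 CPM in Cap IP, against 15.02, 13.2 and 15.06 CPM in input. The Cap IP libraries of PIM1 all lay below the input libraries, as in 29.5% of all genes. The log2 change was -1.04 ± 0.44 (95% interval -1.95 to -0.13), and it missed the threshold (edgeR adjusted p = 0.0582). Without eIF4E Cap IP replicate 1, the highest of the 3, it was -1.70 and passed (edgeR adjusted p = 0.0129), where 35.5% of all genes did. Without replicate 3 the edgeR adjusted p was 0.202, and with the title stem as a block PIM1 passed, as did 53.7% of all genes. In vector cells PIM1 had 20.4, 12.6 and 24.9 CPM in Cap IP, against 20.04, 14.97 and 15.6 CPM in input, a log2 change of 0.22 ± 0.38 (edgeR adjusted p = 0.672). NBN differed the other way, with 0.75 ± 0.48 in eIF4E cells (edgeR adjusted p = 0.212) and -0.49 ± 0.46 in vector cells (edgeR adjusted p = 0.411), but single libraries carried both values. Without eIF4E Cap IP replicate 1 the value in eIF4E cells was 0.24, and without vector input replicate 2 the value in vector cells was 0.21. OSGIN2, the gene opposite to NBN, was higher in Cap IP in eIF4E cells and in vector cells, with log2 changes of 1.79 and 1.62 (edgeR adjusted p = 2.77e-04 and 7.23e-04). Its part in the NBN counts was not tested.

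Of the other 6 genes, MYC stood at -0.34 ± 0.33 in eIF4E cells and 0.21 ± 0.34 in vector cells (log2 change, Cap IP over input, ± SE). CCND1 stood at -0.23 ± 0.27 in eIF4E cells and -0.27 ± 0.27 in vector cells, and CDK2 at -0.57 ± 0.38 and -0.36 ± 0.40. CCNE1, ODC1 and MDM2 lay between -0.19 and -0.04 in eIF4E cells and between -0.28 and 0.21 in vector cells. CCND1, with the most counts, had the narrowest intervals, from -0.78 to 0.33 in eIF4E cells and from -0.82 to 0.29 in vector cells. Signs of these values depend on the scaling. With total counts all 8 were negative in both kinds of cells. With mitochondrial mRNAs as library sizes, which moved the median of all genes by 0.17 in eIF4E cells and 1.01 in vector cells, 5 and 8 of the 8 were positive.

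**Figure D3:**
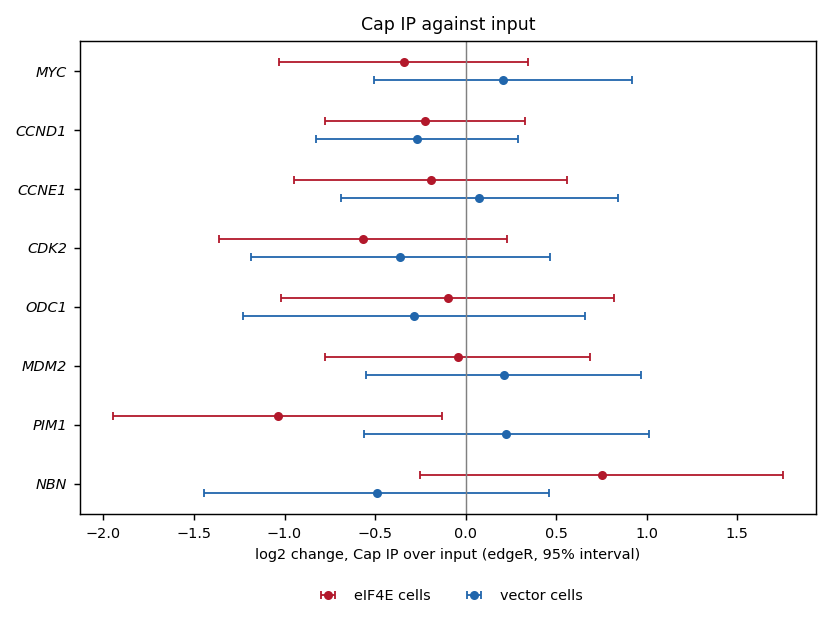
Log2 change of Cap IP over input for each gene in eIF4E cells (red) and vector cells (blue), from edgeR with TMM scaling and 95% intervals not adjusted for the number of genes. All intervals cross 0 except that of PIM1 in eIF4E cells, which runs from -1.95 to -0.13. With total counts as library sizes all values are lower, and all 8 are negative in both kinds of cells.

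The study concerns capping under raised eIF4E, and the comparison for it is the change of Cap IP over input between eIF4E and vector cells. For none of the 8 genes did this change pass, and the same held for all 12460 genes (0 called, 0%, by edgeR, with 728 genes at an unadjusted p under 0.05, and 0 by DESeq2). With the title stem as a block, 51 genes were called, all higher, and still none of the 8. At an unadjusted p under 0.05 there was 1 of 8 members by edgeR (PIM1) and 0 by DESeq2, against 5.84% of all genes by edgeR. The change was positive for 3 of 8, beside 51.3% of all genes. PIM1 had the lowest value, -1.26 ± 0.58 (95% interval -2.46 to -0.06, edgeR adjusted p = 0.833), and NBN the highest, 1.24 ± 0.66 (95% interval -0.14 to 2.62, edgeR adjusted p = 0.833). The NBN value was 0.53 without vector input replicate 2 and 0.73 without eIF4E Cap IP replicate 1. MYC stood at -0.55 ± 0.47 (95% interval -1.54 to 0.44), and CCND1 at 0.04 ± 0.38 (95% interval -0.74 to 0.83). The other 4 lay between -0.27 and 0.18, with SE of 0.51 to 0.63. With mitochondrial mRNAs as library sizes, which moved the median of all genes by -0.89, 7 of 8 were negative and NBN stood at 0.27. The intervals include a change of 1 on the log2 scale in either direction for ODC1, and also a loss of that size for PIM1, MYC, CCNE1, CDK2 and MDM2 and a gain of that size for NBN.

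Ratios within each title stem, which an input and a Cap IP library share, show how far single pairs spread. For PIM1 the log2 ratio of Cap IP over input (with 2 CPM added to each) was -0.25, -1.15 and -1.52 in eIF4E cells, against 0.02, -0.22 and 0.61 in vector cells. The 3 eIF4E ratios lay below the 3 vector ratios, with -0.25 and -0.22 next to each other. Of all genes 16.7% had no overlap and 8.31% were lower in this way. For NBN it was 0.94, 0.48 and 0.36 in eIF4E cells, against -0.19, -1.25 and 0.52 in vector cells, and these overlapped. MYC had -0.02, -0.28 and -0.59 in eIF4E cells, against 0.43, -0.09 and 0.39 in vector cells, overlapping by a single vector pair. For the other 5 genes the ratios of both kinds of cells were intermixed.

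**Figure D4:**
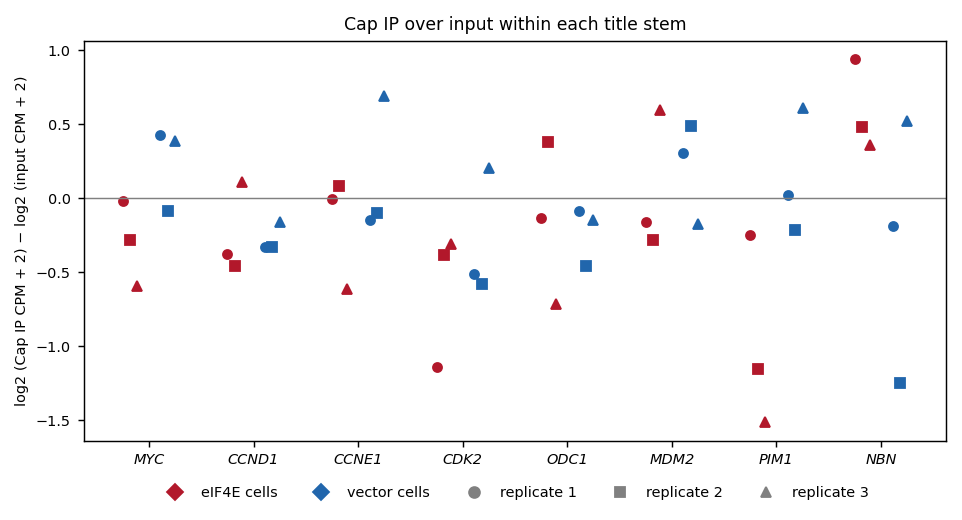
Log2 ratio of Cap IP over input within each title stem (2 CPM added to both), for eIF4E cells (red) and vector cells (blue), 3 stems each. For PIM1 the 3 eIF4E points, at -0.25 to -1.52, lie below the 3 vector points, at -0.22 to 0.61, and for the other genes the points overlap.

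The gene whose log2 CPM followed each member most closely over the 12 libraries was chosen among the 5583 or 5584 other named genes with a mean log2 CPM of at least 4, by Pearson correlation. MYC was followed by TIMM50, a subunit of the mitochondrial import machinery, with r = 0.95, and CDK2 by the co-chaperone SGTA with r = 0.95. PIM1 was followed by ASS1, the argininosuccinate synthase, with r = 0.92, and CCND1 by SDF4 with r = 0.91. For CCNE1, ODC1, MDM2 and NBN the closest were LRRC59 (r = 0.88), EZR (r = 0.88, Spearman's rho 0.52), KPNA1 (r = 0.87) and FAM136A (r = 0.76). The points share library depth and the split into Cap IP and input, and each gene named has the highest value of all candidates, so these values are a description.

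Other genes of the same pathways were taken in 7 lists. Of the 98 genes tested in them, 2 passed in input between eIF4E and vector cells, 2.04% beside 0.53% of all genes. In input, 1 of 23 tested G1/S cyclins, kinases and inhibitors passed between eIF4E and vector cells, CDK6, a kinase that cyclin D1 activates. CDK6 had 59.3, 58.2 and 46.7 CPM in eIF4E input, against 29.1, 14.4 and 21.1 CPM in vector input, without overlap. It rose in eIF4E input, with a log2 change of 1.35 ± 0.30 (edgeR adjusted p = 0.0412). The call was lost without eIF4E input replicate 1, 2 or 3 (0.0597, 0.224 and 0.0961), vector input replicate 2 or 3 (0.105 and 0.197), eIF4E Cap IP replicate 2 or 3 (0.0538 and 0.0559) or vector Cap IP replicate 2 (0.052), as edgeR adjusted p. In these fits the log2 change lay between 1.14 and 1.46. With total counts, mitochondrial mRNAs or all but the 20 most abundant genes as library sizes the adjusted p also missed the threshold, while the log2 change was 1.43, 1.71 and 1.41. The same held with the 50-count filter (1.31) and in a fit of the input groups alone (1.38). In Cap IP CDK6 stood at 1.15 ± 0.31 (edgeR adjusted p = 0.170). Of 14 other reported eIF4E targets 1 passed in input, BCL2L1, a survival gene of the BCL2 family, with a log2 change of 1.62 (edgeR adjusted p = 0.0299). Its opposite gene ABALON averaged 3537 counts while BCL2L1 averaged 149, and the call was lost without eIF4E input replicate 2 or 3 or vector input replicate 1 or 3, with an edgeR adjusted p of up to 0.183. It also missed the threshold when scaled by total counts (log2 change 1.65) or by mitochondrial mRNAs (1.86). No gene passed among 15 of the MYC network, 12 polyamine enzymes and hypusination factors, 15 of the MDM2 and p53 circuit, 11 PIM kinases and substrates and 14 NBN partners. In Cap IP, where 0.225% of all genes passed, 0 passed in each of the 7 lists. Their medians in input lay between -0.07 and 0.30, beside -0.05 over all genes.

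Between Cap IP and input, 30 of the 98 genes tested in the 7 lists passed in eIF4E cells, 30.6% beside 45.1% of all genes, and 27 of 98 in vector cells, 27.6% beside 39.5%. These shares lie below those of all genes, and the counts of each list are given as a description. Of the MYC network, 2 were higher and 5 lower in each kind of cell. TRRAP, a cofactor that MYC recruits, fell to 15.6 ± 0.79 CPM in eIF4E Cap IP, against 160 ± 52.4 in eIF4E input, and to 8.52 ± 3.77 CPM in vector Cap IP, against 97.5 ± 5.07 in vector input (SD, n = 3 each). It shares 735 exonic bases with SMURF1 on the other strand, which averaged 102 counts while TRRAP averaged 143. Of the G1/S list 4 were higher and 2 lower in eIF4E cells, and 4 were higher and 1 lower in vector cells. CCNA2, the S phase cyclin that also partners CDK2, was higher in Cap IP, with log2 changes of 3.16 ± 0.42 in eIF4E cells and 1.98 ± 0.40 in vector cells (edgeR adjusted p = 1.11e-05 and 7.46e-04). CCNA2 has exons opposite to EXOSC9, which averaged 62.0 counts while CCNA2 averaged 256. Of the polyamine list 3 were higher and 2 lower in eIF4E cells and 3 were higher and 0 lower in vector cells. ARG2, an arginase that makes ornithine, the substrate of ODC1, rose to 1826 ± 595 CPM in eIF4E Cap IP, against 331 ± 64.5 in eIF4E input, and to 2179 ± 452 CPM in vector Cap IP, against 715 ± 94.2 in vector input (SD, n = 3 each). ARG2 shares 904 exonic bases, 39.6% of its own, with VTI1B on the other strand, which averaged 647.5 counts while ARG2 averaged 1596.5.

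Of the MDM2 and p53 circuit 3 were higher and 3 lower in Cap IP in eIF4E cells, and 3 were higher and 1 lower in vector cells. HUWE1, like MDM2 a ubiquitin ligase for p53, was lower in Cap IP, with log2 changes of -3.46 ± 0.34 in eIF4E cells and -3.77 ± 0.35 in vector cells (edgeR adjusted p = 8.98e-07 and 4.09e-07). TRRAP, CCNA2, ARG2 and HUWE1 passed in both kinds of cells in each of the 21 alternatives, with the same direction. Their merged exons span 19972, 2748, 2284 and 17780 bases in this order, and a relation of the Cap IP values to length was not tested. Of the PIM list 0 were higher and 1 lower in each kind of cell, the mitotic spindle gene NUMA1. With mitochondrial mRNAs as library sizes NUMA1 did not pass, and its opposite gene LRTOMT averaged 982 counts while NUMA1 averaged 341. Of the NBN partners 2 were higher and 1 lower in eIF4E cells, and 2 were higher and 3 lower in vector cells. The checkpoint kinase gene CHEK1 was among those higher in both, with log2 changes of 1.59 in eIF4E cells and 2.07 in vector cells. In eIF4E cells CHEK1 did not pass when libraries were scaled by total counts (log2 change 0.71) or by mitochondrial mRNAs (1.97). Of the other reported eIF4E targets 2 were higher and 1 lower in eIF4E cells, and 3 were higher and 0 lower in vector cells, with FGF2, a growth factor gene opposite to NUDT6, higher in both (log2 changes of 2.60 in eIF4E cells and 1.84 in vector cells). CCNA2 is in this list too.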

How the data were processed

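The authors deposited whole-number read counts for each gene in 12 libraries and did not normalize them. Per the submitters' processing notes, STAR 2.5.1b, featureCounts 1.4.5-p1, DESeq2 and the build GRCh38.p5 were used, and per the labels an rRNA-depletion kit and single-end reads. Genes were kept by filterByExpr (12460), scaled with TMM and fitted with edgeR 4.0.16 in R 4.3.3 as 4 group means over all libraries, and called at an adjusted p under 0.05. DESeq2 1.42.0 was an alternative. SE is the log2 change divided by the root of the F statistic. Positions and lengths came from GENCODE 44 and start sites from RefSeq. The procedure was run on simulated data for each comparison except the change of Cap IP over input by eIF4E, and the outcome is not reported here. A floor of 3 counts stands for 1.19 to 3.15 CPM. Members and lists were chosen with earlier results of these data known. The rule for named genes took the 8 members, the gene most like each, opposite rows, and up to 3 genes per list by p.

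Residuals from the group means correlated at 0.43, 0.27 and 0.44 between vector libraries of 1 title stem. Between Cap IP libraries of 1 title tag they correlated at 0.20, 0.16 and 0.30, so both reached 0.1 in every pair. The main fits used no pairing, and stems and tags entered only as blocks in the alternatives. Stems in eIF4E cells and tags in input did not reach 0.1 in every pair. Libraries of unlike stems or tags were not compared, so these values do not settle which libraries are paired. No 2 replicates were copies: chi-square divided by its degrees of freedom was at least 5.10. Other choices were library sizes, filters, blocks and libraries left out. Figures were drawn with matplotlib 3.10.9.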

Additional observations from a re-analysis of the deposited data

How the results depend on the processing

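The count of members called was 0 of 8 in all 5 comparisons. It stayed 0 with DESeq2, with its size factors, with mitochondrial mRNAs as library sizes, without a filter and with only the groups compared. It was also 0 with at least 50 counts in 3 libraries, where CDK2, MDM2, PIM1 and NBN fell out and were not tested. With total counts 6 members were called lower in Cap IP in eIF4E cells and 3 in vector cells, where 55.9% and 46.2% of all genes were called in either direction. Without the 20 most abundant genes in the library sizes 4 and 1 members were called lower, where 51.2% and 41.8% of all genes were called in either direction. With the title tag as replicate block 1 member, MYC, was called in input (edgeR adjusted p = 0.0357). Of all genes 462 were called in place of 66. Residual correlations for this tag in input were 0.18, 0.01 and -0.04, so whether the tag pairs the input libraries is not known. With the title stem as replicate block 1 member, PIM1, was lower in Cap IP in eIF4E cells (edgeR adjusted p = 0.0288), where 53.7% of all genes were called. Correlations for this stem in eIF4E cells were 0.35, 0.08 and 0.11. For the change of Cap IP over input 51 genes were called in place of 0. The block changed no other call of a member. Leaving out 1 library gave 0 to 1 members called in Cap IP against input in eIF4E cells, where 34% to 44.8% of all genes were called. It gave 0 in the other comparisons.

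Of 812 log2 changes of members under alternatives, 755 kept the sign, and 29 of the 57 that did not came from other library sizes. Calls over all genes between eIF4E and vector cells were few and moved most. In input the 66 calls became 151 with DESeq2, 11 with total counts, 7 with mitochondrial mRNAs, 19 without the 20 most abundant genes, 318 without a filter, 32 with the 50-count filter, 18 with only the groups compared, and 7 to 109 without 1 library. In Cap IP the 28 calls became 75 with DESeq2, 18 with mitochondrial mRNAs, 204 without a filter, 18 with the 50-count filter, 6 with only the groups compared, 155 with the tag block and 0 to 50 without 1 library. For Cap IP against input there were 5625 calls in eIF4E cells and 4921 in vector cells, 3432 and 2949 with the 50-count filter, which tested fewer genes, and 1553 in eIF4E cells with mitochondrial mRNAs. The share of calls that were higher in Cap IP was 48.5% in eIF4E cells and 46.9% in vector cells, 15.8% and 12.8% with total counts, and 54.5% and 84.0% with mitochondrial mRNAs. The change of Cap IP over input gave 3 calls without a filter. The cause of these shifts was not tested.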
